A study of Arabidopsis thaliana with 12 samples.

Results

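The transcripts described here were lower in all 3 mutants of the series than in the wild type. A probe set, the group of array probes that together measure a transcript, was included where the mean of each mutant lay at least 1.5-fold below the mean of Ws-2 and where the highest genotype mean was at least 6 on the log2 signal scale. This rule found 90 of 22746 probe sets, whereas 124 were raised in all 3 mutants by the same limits. A single gene could be named for 75 of the 90, several genes for 2 and no gene for 13. Since the rule used the differences from Ws-2, these are given below as a description without a test. The 3 differences between the mutants were not used by the rule, although it holds each mutant mean below Ws-2, and they were tested.

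RNA of whole *Arabidopsis thaliana* seedlings, 7 days old and kept in continuous red light, was hybridized to Affymetrix ATH1 arrays, with 3 biological replicates per genotype according to the labels. The 4 genotypes were *phyB-77 bri1-5*, called the double mutant below, both single mutants *phyB-77* and *bri1-5*, and the Ws-2 wild type. The *phyB-77* allele, also called *gul2-1*, came from chemical mutagenesis and impairs the photoreceptor phytochrome B, and *bri1-5* is a weak allele of the BR receptor gene *BRI1*. Each mutant genotype is thus a single allele in a single accession. No probe set could be named for *PHYB* or *BRI1*, and their transcripts were not analysed here. The labels do not say whether replicates were grown separately in time, so p-values cover no more than the spread among these arrays.

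Phytochrome B is the main receptor for red light in seedlings. In its active form it restrains hypocotyl elongation and holds back growth-promoting transcription factors. Brassinosteroids (BRs) are steroid hormones that bind the receptor kinase BRI1 at the cell surface and promote cell elongation through transcription factors of the BZR1 family. Seedlings lacking phytochrome B are therefore long in red light, whereas seedlings with an impaired BRI1 are short.

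The median signal of an array was 5.87 to 5.99, and arrays correlated with 0.993 to 0.998 within genotypes and with 0.969 to 0.988 across genotypes. Markers of seed tissue differed most among the tissue markers examined. The mean log2 signal of 6 seed markers was 9.51 to 9.58 on the *phyB-77 bri1-5* arrays, 10.01 to 10.10 on the *phyB-77* arrays, 6.63 to 6.85 on the *bri1-5* arrays and 6.93 to 7.07 on the Ws-2 arrays. The mean of 6 root markers was 8.41 to 8.45 in *phyB-77 bri1-5*, 7.61 to 7.77 in *phyB-77*, 9.25 to 9.43 in *bri1-5* and 8.65 to 8.69 in Ws-2. For 3 epidermis markers it was 8.03 to 8.10 in *phyB-77 bri1-5*, 8.21 to 8.35 in *phyB-77*, 7.83 to 7.96 in *bri1-5* and 8.60 to 8.64 in Ws-2. The part of these tissue differences in the results below was not tested, and in whole seedlings fewer cells of a type and less RNA per cell cannot be told apart. Of the 6 seed markers, 5 were called higher and 1 lower in *phyB-77 bri1-5* than in Ws-2, 6 higher in *phyB-77*, and 2 lower and none higher in *bri1-5*. Of the 6 root markers, 3 were called lower in *phyB-77 bri1-5*, 5 lower in *phyB-77*, and 4 higher and 1 lower in *bri1-5*, the last being *CASP1*. All 3 epidermis markers were called lower in *phyB-77 bri1-5* and in *bri1-5*, and 2 in *phyB-77*, where *KCS6* differed by 0.25 and was not called. Only these 3 of 5 listed epidermis markers could be named, and only 1 of 5 listed leaf markers. The leaf marker was called lower in *phyB-77*, by -0.71, and was not called in the other mutants. All but 1 root marker were named from the study's tables of changed genes, selected on the same arrays, so these calls are not independent evidence.

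Within the set the lowering was moderate in most probe sets and large in a few. The median log2 difference from Ws-2 was -1.10 in *phyB-77 bri1-5*, -0.83 in *phyB-77* and -0.85 in *bri1-5*. The corresponding signal was 46.6% of that in Ws-2 for the double mutant, 56.4% for *phyB-77* and 55.4% for *bri1-5*. At least 2-fold lower were 50 members in *phyB-77 bri1-5*, 34 in *phyB-77* and 30 in *bri1-5*, and at least 4-fold lower were 13 in *phyB-77 bri1-5*, 8 in *phyB-77* and 5 in *bri1-5*. The lowest of the 4 genotype means belonged to *phyB-77 bri1-5* in 41 members, to *phyB-77* in 26 and to *bri1-5* in 23. The Ws-2 means of the members were 6.00 to 11.44 with a median of 7.68, close to the median of 7.52 over all probe sets with a highest mean of at least 6.

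**Figure D1:**
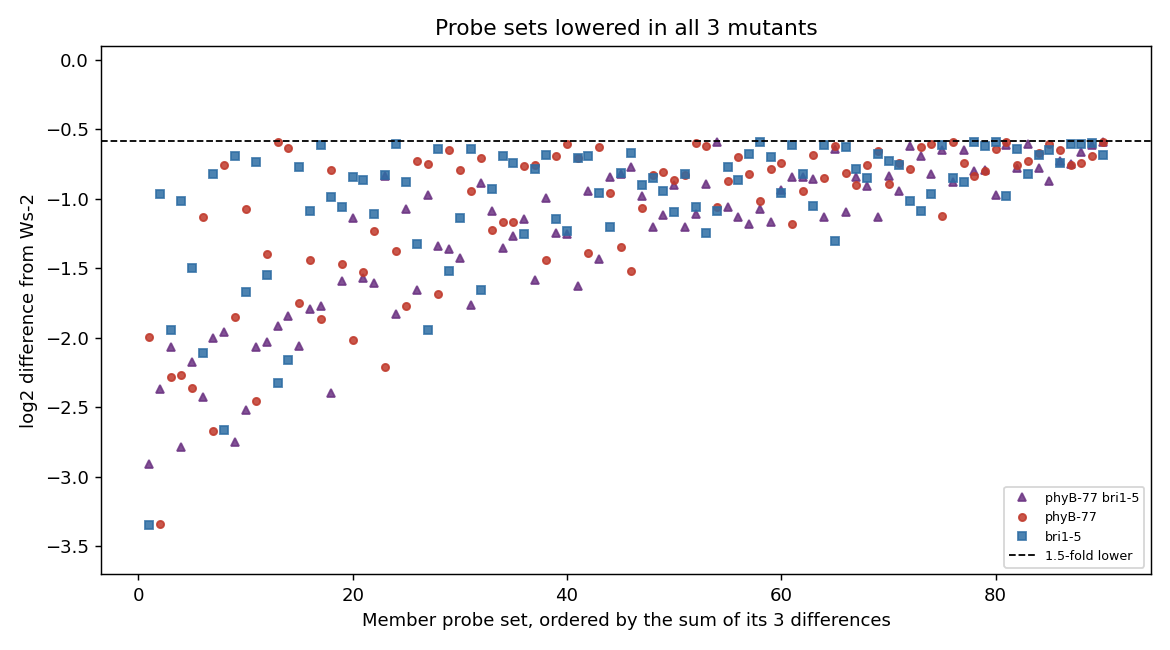
The log2 difference from Ws-2 (y axis) of each of the 90 members in *phyB-77 bri1-5* (triangles), *phyB-77* (circles) and *bri1-5* (squares), ordered along the x axis by the sum of the 3 differences, with the 1.5-fold limit as a dashed line. The members at the left are lowered by up to 3.35 on the log2 scale, and most of those at the right lie close to the limit in every mutant.

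The arrays of the members seldom overlapped. In 89 of the 90, each of the 9 mutant arrays read below each of the 3 Ws-2 arrays, which was so for 3.91% of all probe sets; the rule favours this, and nothing is read from it. The exception was the unnamed probe set 259790_s_at, whose first *bri1-5* array read 7.17 against a lowest Ws-2 value of 7.14. To see how far the choice rested on the arrays it used, the rule was applied to 2 arrays per genotype and the differences were read in the arrays left out. The rule then chose 103, 86 and 85 probe sets without the arrays of replicate 1, 2 and 3. In the arrays left out, all 3 mutants lay below Ws-2 in 95.1%, 100% and 97.6% of those chosen, against 23.5%, 21.3% and 23.6% of all probe sets. The full 1.5-fold limit was met again in all 3 mutants by 41.7%, 64% and 55.3%, against 0.523%, 0.721% and 0.594% of all probe sets. Meeting the limit in all 3 mutants requires that all 3 lie below Ws-2, so the first share could not be the smaller one, and the 2 shares are not compared. The shares of all probe sets include those below the level limit of the rule. The arrays left out belong to the same series, and all 3 mutants were read against a single Ws-2 array. The shares thus describe how the choice repeated within this series and are not independent evidence for it.

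A group of 10 members was at least 2-fold lower in every mutant. These were *CYP96A15*, *PCC1*, *AT4G38860*, *FMO GS-OX1*, *VSP1*, the *TPS-CIN* gene pair, *AT5G28520*, *NAS1*, *AT1G29660* and *AT2G19650*. *CYP96A15*, which encodes the mid-chain alkane hydroxylase of stem wax synthesis, had the lowest sum of differences. It read 4.47, 4.78 and 4.61 in the double mutant, 5.63, 5.47 and 5.49 in *phyB-77*, 3.98, 4.20 and 4.35 in *bri1-5*, and 7.63, 7.48 and 7.46 in Ws-2. Its groups did not overlap, with *bri1-5* lowest. *PCC1*, a gene known from responses to pathogens and from its daily rhythm, read 6.69, 6.51 and 6.46 in the double mutant, 6.36, 6.30 and 6.34 in *phyB-77*, 6.50, 6.80 and 6.71 in *bri1-5*, and 8.35, 8.52 and 8.97 in Ws-2. The mutants lay close together, all well below Ws-2, and no difference between mutants was called for it.

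To order the description, 48 of the members were placed by hand into 7 role groups after their values had been seen. The 42 others comprised the 13 unnamed members and 29 with a gene name to which no role was given. The largest covered the cell wall and apoplast with 12 members, followed by groups of 7 for glucosinolates and their breakdown, for cuticle and lipids, for defence and protease inhibitors, and for transport and metal chelation. A further 6 were regulators or kinases and 2 were *SAUR* genes. The groups did not share a single order of the mutants. The median log2 difference of the glucosinolate group was -2.03 in *phyB-77 bri1-5*, -1.39 in *phyB-77* and -0.97 in *bri1-5*, whereas that of the cell wall group was -1.19 in *phyB-77 bri1-5*, -0.73 in *phyB-77* and -1.01 in *bri1-5*.

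Glucosinolates are the sulphur-rich defence compounds of the cabbage family, and the aliphatic ones are built from methionine by chain elongation, core synthesis and side-chain oxidation. *MYB28*, the main transcription factor of this pathway, read 6.48, 6.48 and 6.49 in the double mutant, 6.62, 6.54 and 6.59 in *phyB-77*, 6.92, 6.92 and 7.18 in *bri1-5*, and 7.65, 7.69 and 7.90 in Ws-2. *IPMI1*, a subunit gene of the isomerase of chain elongation, read 6.31, 6.44 and 6.44 in the double mutant, 6.03, 6.09 and 5.91 in *phyB-77*, 7.81, 7.45 and 7.93 in *bri1-5*, and 8.40, 8.52 and 8.46 in Ws-2. In both genes the double mutant lay near *phyB-77*, and *bri1-5* stood between these and Ws-2. *IPMI1* was lower in *phyB-77 bri1-5* than in *bri1-5* by a log2 difference of -1.33 ± 0.11 (SE, adjusted p = 3.1e-08), and *MYB28* by -0.52 ± 0.10 (adjusted p = 0.0004). Against *phyB-77* neither passed the test, with differences of 0.39 (adjusted p = 0.013) and -0.10 (adjusted p = 0.52).

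Both flavin monooxygenase genes of side-chain oxidation that could be named were members, and they differed in which single mutant was lower. *FMO GS-OX1* read 3.78, 3.87 and 3.91 in the double mutant, 3.75, 3.56 and 3.68 in *phyB-77*, 4.36, 4.72 and 4.50 in *bri1-5*, and 6.07, 5.77 and 6.23 in Ws-2. *FMO GS-OX3* read 4.51, 4.69 and 4.72 in the double mutant, 5.49, 5.12 and 5.44 in *phyB-77*, 4.56, 4.48 and 4.41 in *bri1-5*, and 5.98, 6.01 and 6.02 in Ws-2. The direct difference of *phyB-77* from *bri1-5* was -0.86 ± 0.12 for *FMO GS-OX1* (adjusted p = 1e-05) and 0.87 ± 0.10 for *FMO GS-OX3* (adjusted p = 2e-06). In each case the double mutant lay with the lower single mutant, and neither gene passed the test against that mutant. These were also the members closest to the level limit of the rule, with Ws-2 means of 6.02 and 6.00. The remaining member of this pathway, the cytochrome b5 gene *CB5-C*, differed from Ws-2 by -1.09 in *phyB-77 bri1-5*, -1.23 in *phyB-77* and -0.93 in *bri1-5*, with no difference between mutants called.

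The rest of the pathway showed how far the members stand for it. Of 33 listed genes of aliphatic glucosinolate synthesis, 15 could be named and 5 of these were members. Among the 10 others, 9 were called lower in *phyB-77 bri1-5* than in Ws-2, 8 in *phyB-77* and 6 in *bri1-5*, where 8.01% of all probe sets were called lower in *phyB-77 bri1-5*, 6.77% in *phyB-77* and 8.61% in *bri1-5*. Called higher were 6.55% of all in *phyB-77 bri1-5*, 8.56% in *phyB-77* and 10.5% in *bri1-5*. The gene of chain elongation *MAM3* was the only one of the 10 called higher in a mutant, with a log2 difference of -0.62 for the double mutant, -0.65 for *phyB-77* and 1.37 for *bri1-5*. *BCAT4*, which encodes the first transaminase of chain elongation, missed the set only through *bri1-5*, with differences of -2.28 in *phyB-77 bri1-5*, -2.52 in *phyB-77* and -0.57 in *bri1-5*. Many of these names came from the study's tables of changed genes, which were selected on the same arrays, and a list named in that way is not independent evidence of its direction. The same limit holds, to differing degrees, for the other gene lists and for the tissue markers. Among the 5 non-members named by the platform annotation, 4 were called lower in *phyB-77 bri1-5*, 3 in *phyB-77* and 2 in *bri1-5*.

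**Figure D2:**
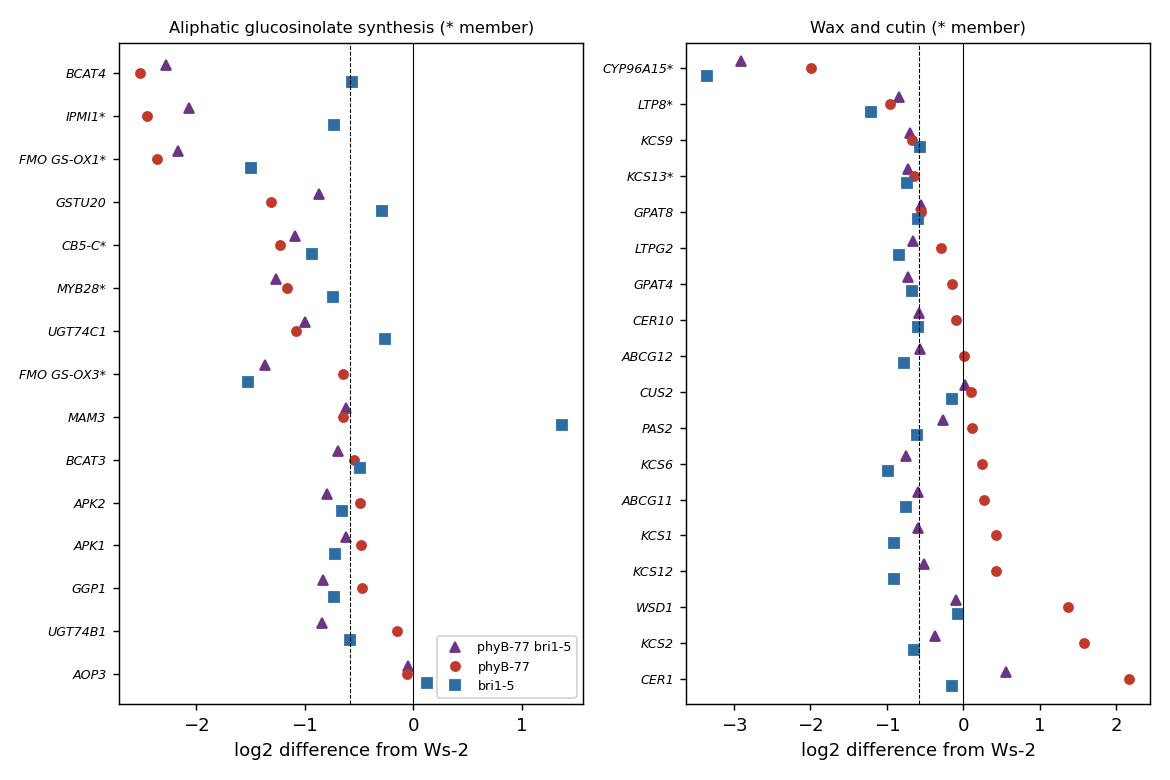
The log2 difference from Ws-2 (x axis) of each named gene of aliphatic glucosinolate synthesis (left) and of wax and cutin synthesis (right) in *phyB-77 bri1-5* (triangles), *phyB-77* (circles) and *bri1-5* (squares), with members marked by an asterisk and the 1.5-fold limit dashed. Most glucosinolate genes lie left of 0 in all 3 mutants, whereas several wax and cutin genes lie right of 0 in *phyB-77*, up to 2.17 for *CER1*, which lies at 0.56 in *phyB-77 bri1-5*.

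The breakdown of glucosinolates was represented by *ESM1*, whose protein favours isothiocyanates over nitriles as products of the enzyme myrosinase, and by the myrosinase-binding-protein-like gene *AT5G28520*. *ESM1* had the lowest difference from Ws-2 of all members in *phyB-77*, -3.34. It read 5.35, 5.21 and 5.36 in the double mutant, 4.30, 4.60 and 4.11 in *phyB-77*, 6.56, 6.61 and 6.95 in *bri1-5*, and 7.58, 7.75 and 7.69 in Ws-2. The 4 genotypes did not overlap and the double mutant lay between the single mutants, lower than *bri1-5* by -1.40 ± 0.12 (adjusted p = 7.9e-08) and higher than *phyB-77* by 0.97 ± 0.12 (adjusted p = 9.8e-06). *AT5G28520* read 6.80, 6.75 and 6.79 in the double mutant, 7.42, 7.44 and 7.38 in *phyB-77*, 7.12, 7.52 and 7.14 in *bri1-5*, and 8.71, 8.85 and 8.88 in Ws-2. Here the double mutant lay below both single mutants. The 2 other named genes of this system encode nitrile specifier proteins, and both were called higher in *phyB-77* than in Ws-2. *NSP2* differed from Ws-2 by 2.03 in *phyB-77 bri1-5*, 2.57 in *phyB-77* and -0.12 in *bri1-5*. *NSP3* differed by -0.11 in *phyB-77 bri1-5*, 0.45 in *phyB-77* and -0.58 in *bri1-5*, where it was called lower.

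The cuticle covers the epidermis with wax and cutin, and the members of this group included genes of long-chain lipid synthesis and transfer. Beside *CYP96A15* these were *KCS13*, a condensing enzyme of fatty acid elongation, and the lipid transfer protein gene *AT2G18370*. Their differences were close to each other in the 3 mutants: for *KCS13*, -0.73 in *phyB-77 bri1-5*, -0.65 in *phyB-77* and -0.74 in *bri1-5*, and for *AT2G18370*, -0.84 in *phyB-77 bri1-5*, -0.95 in *phyB-77* and -1.20 in *bri1-5*. *CYP96A15* was lower in *phyB-77 bri1-5* than in *phyB-77* by -0.91 ± 0.11 (adjusted p = 5e-06). Its difference of 0.44 ± 0.11 from *bri1-5* passed the test (adjusted p = 0.0044) but missed it without *bri1-5* replicate 1 or without replicate 2 or 3 of the double mutant, with adjusted p of 0.0162 to 0.0351.

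Like the members, the other named wax and cutin genes were mostly lower in *bri1-5* and *phyB-77 bri1-5*, but not in *phyB-77*. Of 43 listed genes 18 could be named, and among the 15 that were not members, 9 were called lower and 1 higher in *phyB-77 bri1-5*, 2 lower and 4 higher in *phyB-77*, and 12 lower and none higher in *bri1-5*. Of all probe sets 8.01% were called lower in *phyB-77 bri1-5*, 6.77% in *phyB-77* and 8.61% in *bri1-5*. Only 2 of the 15 were named by the platform annotation. Neither of these was called lower in any mutant, and 1 was called higher in *phyB-77*. The others were named from the study's tables of changed genes, selected on the same arrays, so these counts are not independent evidence of a direction. *CER1*, a gene of alkane synthesis, differed from Ws-2 by 0.56 in *phyB-77 bri1-5*, 2.17 in *phyB-77* and -0.14 in *bri1-5*. In the direct comparison 12 of the 15 were higher in *phyB-77* than in *bri1-5* and none lower, where 13.5% of all probe sets were called higher and 13.2% lower. Of the 2 named by the annotation, 1 was higher.

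The GDSL-type lipase genes *AT1G29660*, *AT4G28780*, *AT1G33811* and *AT5G18430* were members as well. Proteins of this large family act on esters of lipids and other compounds. *AT1G29660* read 8.70, 8.73 and 8.57 in the double mutant, 8.84, 8.75 and 8.78 in *phyB-77*, 9.20, 9.35 and 9.05 in *bri1-5*, and 10.31, 10.15 and 10.32 in Ws-2, and was lower in the double mutant than in *bri1-5* (adjusted p = 0.00028). *AT4G28780* read 7.51, 7.61 and 7.64 in the double mutant, 7.15, 6.77 and 6.75 in *phyB-77*, 7.85, 7.95 and 7.55 in *bri1-5*, and 8.62, 8.57 and 8.79 in Ws-2. It was thus lowest in *phyB-77* and higher in the double mutant, by 0.70 ± 0.12 (adjusted p = 0.00026), and *AT1G33811* behaved alike with 0.45 ± 0.09 (adjusted p = 0.00076).

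The cell wall group held proteins that loosen, trim or modify wall polymers. The expansin genes *EXPB3* and *EXPA5* belong to a family that loosens walls during growth, *XTH7* and *GT18* act on xyloglucan, and *AT1G60590* and *AT1G10640* encode polygalacturonases, which cut pectin. *EXPB3* read 6.51, 6.46 and 6.44 in the double mutant, 7.50, 7.27 and 7.43 in *phyB-77*, 6.94, 6.93 and 6.53 in *bri1-5*, and 8.26, 8.04 and 8.08 in Ws-2, and was lower in the double mutant than in *phyB-77* by -0.93 ± 0.11 (adjusted p = 5.1e-06). *XTH7*, one of the brightest members, read 10.17, 10.26 and 10.13 in the double mutant, 10.78, 10.90 and 10.84 in *phyB-77*, 10.25, 10.04 and 10.35 in *bri1-5*, and 11.51, 11.33 and 11.49 in Ws-2. In both genes the double mutant and *bri1-5* formed the lower pair. *EXPA5* differed from Ws-2 by -0.65 in *phyB-77 bri1-5*, -0.74 in *phyB-77* and -0.88 in *bri1-5*, with no difference between mutants called.

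Other expansin genes went both ways. Of 23 listed, 18 could be named, and among the 16 non-members 5 were called lower and 4 higher in *phyB-77 bri1-5*, 4 lower and 5 higher in *phyB-77*, and 6 lower and 4 higher in *bri1-5*. The polygalacturonase gene *AT1G60590* had the opposite order to *EXPB3*. It read 6.63, 6.91 and 6.68 in the double mutant, 6.75, 7.13 and 7.28 in *phyB-77*, 8.02, 8.20 and 7.87 in *bri1-5*, and 8.76, 8.81 and 8.82 in Ws-2, with a difference of -1.29 ± 0.12 between the double mutant and *bri1-5* (adjusted p = 2.7e-07). The lowered cell wall genes thus included some with *phyB-77* and some with *bri1-5* as the lower single mutant.

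*AT5G46940*, which encodes a protein of the invertase and pectin methylesterase inhibitor family, showed the largest direct difference between the single mutants among members higher in *phyB-77*. It read 5.38, 5.41 and 5.34 in the double mutant, 6.41, 6.59 and 6.72 in *phyB-77*, 4.68, 4.86 and 4.46 in *bri1-5*, and 7.43, 7.27 and 7.28 in Ws-2. The groups did not overlap, and the double mutant was lower than *phyB-77* by -1.20 ± 0.11 (adjusted p = 1.5e-07) and higher than *bri1-5* by 0.71 ± 0.11 (adjusted p = 5.7e-05). Dirigent proteins guide the coupling of phenolic radicals, and the dirigent-like genes *AT1G65870* and *AT4G11210* were members with different orders. *AT1G65870* read 4.77, 4.90 and 4.58 in the double mutant, 3.97, 4.11 and 4.18 in *phyB-77*, 5.67, 6.28 and 5.84 in *bri1-5*, and 7.00, 6.59 and 6.67 in Ws-2, and *AT4G11210* differed from Ws-2 by -1.43 in *phyB-77 bri1-5*, -0.79 in *phyB-77* and -1.14 in *bri1-5*.

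In the Casparian strip, the lignified seal of the root endodermis, CASP proteins mark the membrane where the wall is sealed. *CASP5* read 8.14, 8.08 and 8.13 in the double mutant, 8.53, 8.10 and 8.28 in *phyB-77*, 7.45, 7.54 and 7.04 in *bri1-5*, and 8.94, 8.88 and 9.19 in Ws-2. The double mutant overlapped *phyB-77* and was higher than *bri1-5* by 0.77 ± 0.13 (adjusted p = 0.00018). Of 14 listed genes of the strip and endodermis 9 could be named, and of the 7 non-members 5 were called lower in *phyB-77 bri1-5*, 3 in *phyB-77* and 6 in *bri1-5*, none higher. Of all probe sets 8.01% were called lower in *phyB-77 bri1-5*, 6.77% in *phyB-77* and 8.61% in *bri1-5*. Only 1 of the 7, *SGN3*, was named by the platform annotation, and it was called in no mutant. The others were named from the study's tables of changed genes, selected on the same arrays. *CASP1* to *CASP4* differed from Ws-2 by -0.26 to -0.56 in *phyB-77* and by -0.67 to -1.05 in *bri1-5*, so that *CASP5* was the family member past the limit in both. *CASP1* is also among the 6 root markers, of which the peroxidase genes *PRX2* and *PRX73*, the iron transporter gene *IRT1* and the root hair oxidase gene *RHD2* were called lower in *phyB-77* and higher in *bri1-5* than in Ws-2.

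The *SAUR* genes *AT4G38860* and *AT4G38840*, also named *SAUR16* and *SAUR14*, belong to a family of short transcripts that auxin induces quickly, and lie 2 genes apart. *AT4G38860* read 5.45, 5.58 and 5.43 in the double mutant, 5.89, 6.08 and 6.04 in *phyB-77*, 7.30, 7.16 and 7.31 in *bri1-5*, and 8.12, 8.34 and 8.36 in Ws-2. *AT4G38840* read 8.04, 8.01 and 8.13 in the double mutant, 8.63, 8.48 and 8.44 in *phyB-77*, 9.35, 9.31 and 9.19 in *bri1-5*, and 9.84, 9.95 and 9.88 in Ws-2. Both genes kept the same order of genotypes without overlap. Against *bri1-5* the double mutant was lower by -1.77 ± 0.10 for *AT4G38860* (adjusted p = 8.2e-11) and -1.22 ± 0.09 for *AT4G38840* (adjusted p = 6e-09), and against *phyB-77* by -0.52 (adjusted p = 0.0005) and -0.46 (adjusted p = 0.00079). Of the 5 other named genes of 43 listed, 2 were called lower and 1 higher in *phyB-77 bri1-5*, 3 lower in *phyB-77*, and 1 lower and 1 higher in *bri1-5*. Of 23 listed genes of auxin synthesis by *YUCCA* enzymes and of auxin transport 7 could be named, and none was a member. Of the 7, 3 were called lower in *phyB-77 bri1-5*, 2 lower in *phyB-77*, and 3 lower and 2 higher in *bri1-5*. *YUC2* missed the set only through *bri1-5*, with differences of -0.85 in *phyB-77 bri1-5*, -0.77 in *phyB-77* and -0.55 in *bri1-5*. Those called higher in *bri1-5* were *YUC9* (1.33) and *PIN3* (0.73).

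There were 2 other pairs of neighbouring members, *FMO GS-OX1* with the adjacent *AT1G65870*, and *AT1G03400* with *AT1G03440*, 3 genes apart. The first pair shared the order of genotypes, with *phyB-77* lowest and *bri1-5* highest of the mutants. For *AT1G03400* and *AT1G03440* no difference between mutants was called.

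Defence genes made up a further group. *VSP1*, a storage protein gene induced by jasmonate, read 4.30, 4.43 and 4.32 in the double mutant, 5.22, 5.85 and 5.87 in *phyB-77*, 4.54, 4.74 and 4.73 in *bri1-5*, and 6.68, 6.85 and 6.80 in Ws-2. The probe set of the *TPS-CIN* genes, which make the volatile terpene cineole, read 6.23, 6.11 and 6.16 in the double mutant, 7.56, 7.64 and 7.62 in *phyB-77*, 6.86, 7.10 and 7.08 in *bri1-5*, and 8.56, 8.71 and 8.77 in Ws-2. Both were lowest in the double mutant, which was lower than *phyB-77* by -1.29 ± 0.13 for *VSP1* (adjusted p = 1e-06) and by -1.44 ± 0.09 for *TPS-CIN* (adjusted p = 2.6e-09). Only for *TPS-CIN* did the difference from *bri1-5* also pass the test (-0.85 ± 0.09, adjusted p = 1.4e-06), while that of *VSP1* was -0.32 (adjusted p = 0.089). Both probe sets carry the suffix that ATH1 uses for probes shared by several transcripts, as do 6 of the 90, and the near-identical copies cannot be separated.

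Protease inhibitors act against the digestive enzymes of insects. *DR4*, a Kunitz-type inhibitor gene, read 8.53, 8.65 and 8.70 in the double mutant, 8.77, 8.81 and 8.95 in *phyB-77*, 7.75, 7.61 and 7.60 in *bri1-5*, and 9.57, 9.55 and 9.67 in Ws-2. The trypsin-inhibitor-like gene *AT2G43550* read 8.25, 8.18 and 8.21 in the double mutant, 7.41, 7.44 and 7.55 in *phyB-77*, 8.29, 8.38 and 8.27 in *bri1-5*, and 8.94, 9.03 and 8.99 in Ws-2. In each gene a single mutant stood alone below the rest, *bri1-5* for *DR4* and *phyB-77* for *AT2G43550*, and the double mutant was higher than it by 0.97 ± 0.09 (adjusted p = 1.5e-07) and 0.74 ± 0.08 (adjusted p = 2.6e-06). Of 26 listed jasmonate-induced and related genes 12 could be named by 11 probe sets, of which 4 were members. Of the 7 other probe sets, 4 were called lower in *phyB-77 bri1-5*, 2 lower and 1 higher in *phyB-77*, and 3 lower and 1 higher in *bri1-5*. *ICS2*, an isochorismate synthase gene, read 5.42, 5.46 and 5.49 in the double mutant, 6.14, 6.38 and 6.29 in *phyB-77*, 5.83, 5.94 and 6.05 in *bri1-5*, and 6.78, 7.10 and 6.80 in Ws-2, with the double mutant below both single mutants.

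Among transport genes, *AT3G21670*, a member of the NPF family of nitrate and peptide transporters, stood apart. It read 7.34, 7.38 and 7.43 in the double mutant, 9.01, 9.07 and 8.87 in *phyB-77*, 8.77, 8.78 and 8.83 in *bri1-5*, and 9.84, 9.79 and 9.71 in Ws-2. The single mutants lay close together, whereas the double mutant was lower by -1.60 ± 0.09 than *phyB-77* (adjusted p = 2.6e-10) and by -1.41 ± 0.09 than *bri1-5* (adjusted p = 4.8e-10). *NAS1*, a nicotianamine synthase gene of metal transport, read 7.64, 8.00 and 7.93 in the double mutant, 8.41, 8.21 and 8.01 in *phyB-77*, 8.62, 8.50 and 8.57 in *bri1-5*, and 9.53, 9.75 and 9.67 in Ws-2. A second gene of the NPF family, *AT1G72140*, read 6.37, 6.38 and 6.39 in the double mutant, 6.43, 6.35 and 6.41 in *phyB-77*, 5.83, 5.72 and 5.60 in *bri1-5*, and 7.10, 6.91 and 7.06 in Ws-2, so that *bri1-5* alone was lower than the other mutants. The sugar transporter genes *SWEET17* and *SWEET2* were members as well. *SWEET17* differed from Ws-2 by -1.25 in *phyB-77 bri1-5*, -0.69 in *phyB-77* and -1.14 in *bri1-5*, and *SWEET2* by -0.97 in the double mutant, -0.64 in *phyB-77* and -0.59 in *bri1-5*.

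*COR15B*, which encodes a chloroplast protein that protects membranes in the cold, read 7.31, 7.14 and 7.25 in the double mutant, 5.86, 6.01 and 5.71 in *phyB-77*, 7.15, 7.18 and 7.41 in *bri1-5*, and 8.12, 8.11 and 7.99 in Ws-2. The double mutant and *bri1-5* overlapped, and the double mutant was higher than *phyB-77* by 1.37 ± 0.10 (adjusted p = 1.2e-08), the largest such difference among the members. Other genes of the cold response went in different directions. Of 15 listed, 12 could be named by 11 probe sets, and of the 10 non-members 1 was called lower and 3 higher in *phyB-77 bri1-5*, 3 lower and 5 higher in *phyB-77*, and 1 lower and 3 higher in *bri1-5*. Against *phyB-77*, 4 of the 10 were called higher and 5 lower in the double mutant, where 6.44% and 9.51% of all probe sets were called. Among the 4, *COR413IM1*, which encodes a protein of the chloroplast envelope, was higher by 0.72 ± 0.11 (adjusted p = 8.3e-05). It differed from Ws-2 by -0.32 in *phyB-77 bri1-5*, -1.04 in *phyB-77* and -1.15 in *bri1-5*. Among the 5, *ERD10* was lower by -1.17 and *RD29A* by -0.95. *COR15A* was not called against *phyB-77* (-0.35), and was lower in the double mutant than in *bri1-5* by -0.76 (adjusted p = 6.25e-06).

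*AT2G16005*, for a protein with a lipid-recognition domain, and *MLP328*, of the major-latex-protein family, were bright members with *bri1-5* lowest. *AT2G16005* read 8.17, 8.06 and 8.20 in the double mutant, 9.78, 9.34 and 9.28 in *phyB-77*, 7.79, 7.79 and 7.62 in *bri1-5*, and 10.15, 9.92 and 10.09 in Ws-2. *MLP328* read 8.50, 8.46 and 8.48 in the double mutant, 9.47, 9.76 and 9.84 in *phyB-77*, 8.08, 8.26 and 8.15 in *bri1-5*, and 10.35, 10.28 and 10.34 in Ws-2. In both, *phyB-77* was the least lowered mutant, and the double mutant stayed close to *bri1-5*, lower than *phyB-77* by -1.32 and -1.21.

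The regulators among the members were lowered moderately. *bHLH071*, of the basic helix-loop-helix family, read 5.39, 5.46 and 5.61 in the double mutant, 5.50, 5.39 and 5.69 in *phyB-77*, 6.59, 6.00 and 5.98 in *bri1-5*, and 6.96, 7.04 and 7.17 in Ws-2. *AT2G29970*, also named *SMXL7*, a repressor of strigolactone responses, read 6.49, 6.71 and 6.59 in the double mutant, 6.59, 6.52 and 6.76 in *phyB-77*, 6.65, 5.83 and 6.23 in *bri1-5*, and 6.97, 7.42 and 7.25 in Ws-2. The 3 mutants overlapped for *SMXL7*, the only gene of 12 listed for strigolactone and karrikin signalling that could be named. Of 21 listed genes of the stomatal lineage 8 could be named, and of the 7 besides *bHLH071* 4 were called lower and 1 higher in *phyB-77 bri1-5*, 1 lower in *phyB-77*, and 3 lower in *bri1-5*. Of all probe sets 8.01% were called lower in *phyB-77 bri1-5*, 6.77% in *phyB-77* and 8.61% in *bri1-5*. Of the 7, 4 were named by the platform annotation, with 1 lower and 1 higher in *phyB-77 bri1-5* and no call in either single mutant. The others were named from the study's tables of changed genes, selected on the same arrays. The kinase gene *AT4G02630* read 5.80, 5.72 and 5.80 in the double mutant, 6.66, 6.63 and 6.51 in *phyB-77*, 6.61, 6.70 and 6.41 in *bri1-5*, and 7.44, 7.42 and 7.20 in Ws-2, with overlapping single mutants and a lower double mutant.

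**Figure D3:**
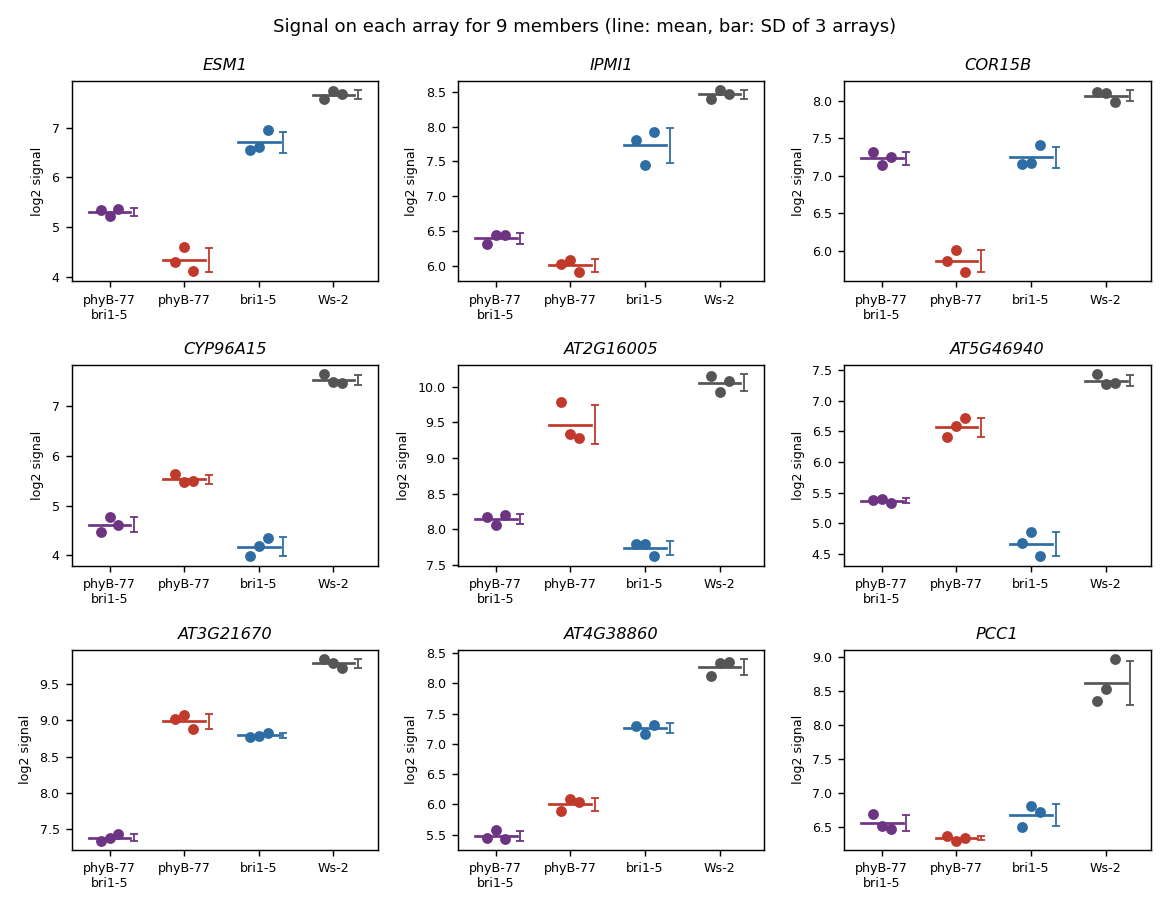
The log2 signal (y axis) of 9 members on each array, with *phyB-77 bri1-5* at the left, then *phyB-77*, then *bri1-5* and Ws-2 at the right, with a line for the mean and a bar for the SD of 3 arrays; each panel has its own y range. *ESM1*, *IPMI1* and *COR15B* are lowest in *phyB-77*, *CYP96A15*, *AT2G16005* and *AT5G46940* in *bri1-5*, *AT3G21670* and *AT4G38860* in the double mutant, and the mutants lie close together for *PCC1*.

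The comparison of the double mutant with each single mutant asks whether the second mutation changed transcripts that were already lowered. Against *bri1-5*, 33 of the 90 members were called, 27 lower and 6 higher in *phyB-77 bri1-5*, where 19.4% of all probe sets were called, 11.6% lower and 7.77% higher. Against *phyB-77*, 33 were called, 22 lower and 11 higher, where 16% of all were called, 9.51% lower and 6.44% higher. Between the single mutants 42 were called, 18 higher and 24 lower in *phyB-77* than in *bri1-5*, where 26.7% of all were called, 13.5% higher and 13.2% lower. The members were called more often than all probe sets in each comparison, which include many that differed in no genotype. In none of the calls of members did the arrays of the groups compared overlap. A call itself favours such separation. Its share among all called probe sets was not counted, so nothing is read from it. The median difference of the members was -0.18 in *phyB-77 bri1-5* against either single mutant, and -0.04 over all probe sets in both comparisons.

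The 90 members could be sorted by these 3 tests. In 35 no difference between mutants was called, as in 64.1% of all probe sets, and in 10 a single comparison was called, against 13.2% of all, among them *NAS1*, *GT18* and *SWEET2*. In 10 the double mutant was lower than both single mutants, against 2.37% of all. These were *AT4G38860*, *AT4G38840*, *TPS-CIN*, *AT5G28520*, *AT3G21670*, *AT4G02630*, *ICS2* and the unnamed 249775_at, 246272_at and 255694_at. The largest step among them was that of 249775_at, which read 4.53, 4.88 and 4.83 in the double mutant, 5.91, 5.33 and 5.70 in *phyB-77*, 6.71, 6.57 and 7.13 in *bri1-5*, and 7.66, 7.53 and 7.30 in Ws-2, a difference of -2.06 ± 0.15 from *bri1-5* (adjusted p = 9.7e-09).

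In the larger number of members with a difference, the double mutant passed the test against only 1 single mutant. In 10 it was lower than *bri1-5* and not called against *phyB-77*, which was itself lower than *bri1-5* (5.65% of all probe sets). *FMO GS-OX1*, *IPMI1*, *MYB28*, *AT1G60590*, *AT1G29660* and *bHLH071* were among these. In 9 it was lower than *phyB-77* and not called against *bri1-5*, which was itself lower than *phyB-77* (4.17% of all), among them *VSP1*, *AT2G16005*, *MLP328*, *EXPB3*, *FMO GS-OX3*, *SWEET17* and *XTH7*. A difference that missed the threshold does not show equal levels, and the 95% interval of a difference between mutants reached up to 0.40 on either side of its value.

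In a smaller number the double mutant was nearer to Ws-2 than one single mutant. In 8 members it was higher than *phyB-77* and not called against *bri1-5*, which was also higher than *phyB-77*, against 2.85% of all. They included *COR15B*, *AT2G43550*, *AT4G28780*, *AT1G33811*, the carotenoid cleavage gene *NCED4* and *AT3G46490*, a gene of the 2-oxoglutarate-dependent oxygenases, with 0.87 ± 0.14 (adjusted p = 0.00014). In 3, *DR4*, *CASP5* and *AT1G72140*, it was higher than *bri1-5* and not called against *phyB-77* (3.75% of all). In 4, *CYP96A15*, *ESM1*, *AT1G65870* and *AT5G46940*, it lay between the single mutants and passed the test against both (2.32% of all). The difference of *AT1G65870* from *phyB-77* missed the threshold without *phyB-77* replicate 1 or without replicate 2 of the double mutant, with adjusted p of 0.0109 and 0.0138. *AT4G22610*, which encodes a lipid-transfer-like protein, was the only member higher in the double mutant than in both single mutants, by 0.50 (adjusted p = 0.0029) against *bri1-5* and 0.47 (adjusted p = 0.0057) against *phyB-77*, and the difference from *phyB-77* missed the threshold when any single array of either genotype was left out.

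**Figure D4:**
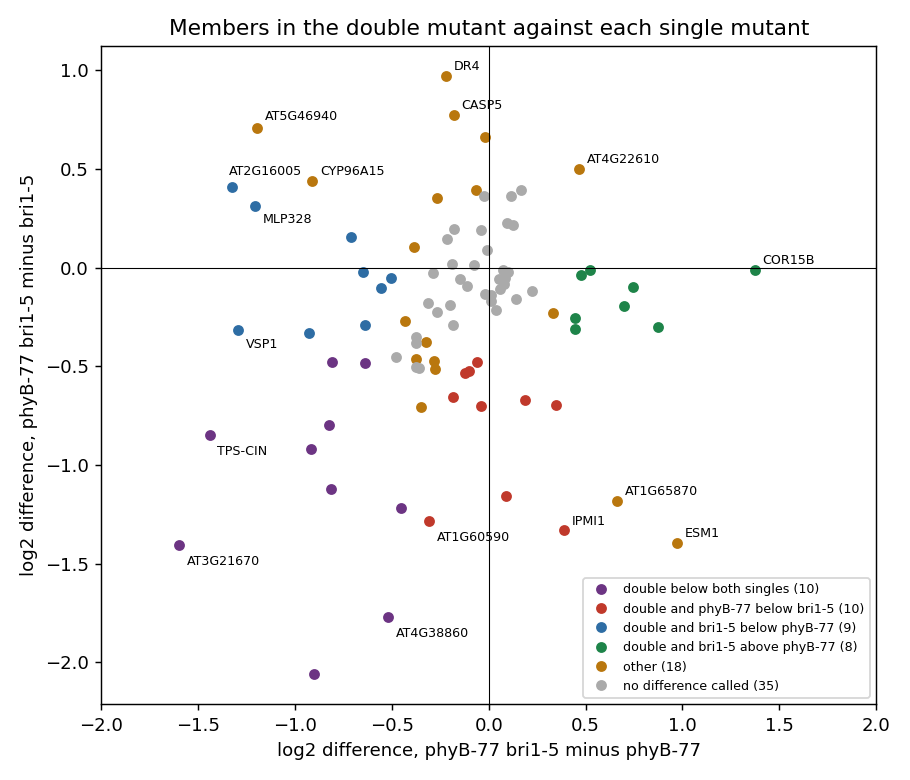
The log2 difference of *phyB-77 bri1-5* minus *phyB-77* (x axis) and minus *bri1-5* (y axis) for the 90 members, coloured by which comparisons between mutants passed the test, with the number of members in brackets. Points below and left of 0, such as *AT3G21670*, are lower in the double mutant than in both single mutants, and *COR15B* at the right is higher than in *phyB-77* and not called against *bri1-5*.

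If the effects of both mutations had added up on the log2 scale, the double mutant would have been lowered by the sum of the single differences. It was lowered less than this sum in 85 members and more in 5, with a median departure of 0.74. The rule requires both single mutants to be lowered and so favours such departures, and no test is given. The sum could also lie below the range of the arrays. For *CYP96A15* it was -5.34 from a Ws-2 mean of 7.52, which leads below the lowest value of any probe set, 2.36. The 5 members lowered beyond the sum were *AT3G21670*, with -0.61, *AT4G02630*, and the unnamed 249775_at, 246272_at and 255694_at. The double mutant lay below both single means in 41 members, between them in 44 and above both in 5.

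At the edge of the fold limit, the members just inside were *AT2G42110*, *AT2G16005* and *AT4G22610*, whose smallest lowering was -0.59 in each, in *phyB-77* for the first and second and in the double mutant for *AT4G22610*. Just outside were *SEOa*, with -0.63 in *phyB-77 bri1-5*, -0.72 in *phyB-77* and -0.58 in *bri1-5*, and *AT3G56060* and *AT3G56290*, whose smallest lowering was also -0.58. *SEOa* is a relative of the phloem filament gene *SEOR1*, which was a member with a lowering of -0.66 in *phyB-77 bri1-5*, -0.74 in *phyB-77* and -0.61 in *bri1-5*. The limit thus parts transcripts with nearly the same values.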

How the data were processed

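The values of 12 ATH1 arrays were deposited by the authors as log2 signals made with RMA, which corrects background, equalizes array distributions and summarizes probes; its version is not given in the sources used here. These values were used unchanged. The file held 22810 probe sets, and 64 controls were left out. The model, fitted to all arrays in R 4.3.3 (limma 3.58.1), had a coefficient per genotype and no other term. The two-sided moderated test gave all adjusted p-values (Benjamini-Hochberg over 22746 probe sets), and an adjusted p under 0.01 was called. Residual degrees of freedom were 8 plus 9.85 from the prior, and the standard errors (SE) of members were 0.08 to 0.19. Precision is limited by the number of arrays.

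The platform annotation named a single gene for 13513 probe sets, the readable part of the study's tables named 1295 more, and 18 of 1390 named by both conflicted (annotation kept). Symbols and neighbours came from RefSeq TAIR10.1. The members and gene lists were chosen with earlier results of these data known. Genes named by rule were the 12 with the lowest sum of differences, the 4 lowest in each mutant, the 4 highest and lowest called in each comparison of mutants, members of the lists, and 3 on either side of the fold limit. Other members were named with their values known. Where several probe sets measured a listed gene, the brightest stood for it. Columns of the study's tables were used for gene names only. Alternatives were other limits and thresholds, scalings, variance models, array weights, filters, a replicate block, 6 arrays only, and each array left out. A planned count of promoter motifs was not run, since no sequences were used here. Python 3.11.15 with pandas 2.3.3 and matplotlib 3.10.9 made the tables and figures.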

Additional observations from a re-analysis of the deposited data

Results flagged for a closer look

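In 29 members, the mutation that lowered the signal in the Ws-2 background, with every array of its single mutant below every Ws-2 array, went with a higher signal in the background of the other mutation, with every array of *phyB-77 bri1-5* above every array of the other single mutant. The difference between these effects was not tested, since the rule that chose the members used the contrast with Ws-2. The rule also favours the first condition, as all 9 mutant arrays read below all 3 Ws-2 arrays in 89 of the 90 members. The share of all probe sets that meet both conditions was not counted, so nothing is read from the number. In 16 of the 29 members the difference between the mutants passed the test. The second condition favours this, so nothing is read from that number either. Higher in *phyB-77 bri1-5* than in *bri1-5*, by log2 differences, were *DR4* (0.97), *CASP5* (0.77), *AT5G46940* (0.71), *AT1G72140* (0.66), *AT4G22610* (0.50) and *CYP96A15* (0.44). Higher in *phyB-77 bri1-5* than in *phyB-77* were *COR15B* (1.37), *ESM1* (0.97), *AT3G46490* (0.87), *AT2G43550* (0.74), *AT4G28780* (0.70), *AT1G65870* (0.66), *AT5G41050* (0.52), the unnamed 264016_at (0.48), *AT4G22610* (0.47), *AT1G33811* (0.45) and *NCED4* (0.44). *AT4G22610* stands in both lists. In the other cases the arrays did not overlap but the difference between mutants missed the threshold. Against *bri1-5* these were *AT2G16005* (0.41), the unnamed 253112_at (0.40), *AT1G29520* (0.39), *AT2G18370* (0.36), *ENODL9* (0.35), *MLP328* (0.31), *RTM1* (0.22) and *CSD2* (0.14). Against *phyB-77* they were *IPMI1* (0.39), *AT1G32520* (0.35), the probe set of *AT2G26750* and *SEH* (0.33), *PCC1* (0.22) and *FMO GS-OX1* (0.19).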

How the results depend on the processing

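No call between mutants changed direction under any alternative, and 72 of the 108 calls were kept in all 22 settings tried. With each array left out in turn, 85 calls were kept, and 23 missed the threshold in at least 1 fit, *SWEET2* in 9 of the 12 fits. Among the 23 were *CYP96A15* and *SWEET2* against *bri1-5*, *AT1G65870*, *NCED4* and *GT18* against *phyB-77*, *AT4G22610* against both, and *MYB28*, *AT1G29660* and *AT4G11210* between the single mutants. The members called ranged from 29 to 39 in *phyB-77 bri1-5* against *bri1-5*, from 26 to 38 in *phyB-77 bri1-5* against *phyB-77* and from 39 to 42 in *phyB-77* against *bri1-5* over these fits. Without *phyB-77* replicate 1, 10 members were called higher in *phyB-77 bri1-5* than in *bri1-5* in place of 6, as also at an adjusted p under 0.05. Without *phyB-77 bri1-5* replicate 2, 6 were called higher than in *phyB-77* in place of 11, as also with a 1.5-fold criterion. The 6 arrays of *phyB-77* and *bri1-5* alone gave 32 calls between them in place of 42. A 2-fold limit in the rule left 10 members in place of 90. Median centring gave 106, quantile normalization 100, genotype medians 93, a level limit of 7 gave 64 and no level limit 110. Of the 90 members, these settings kept 89, 88, 75, 64 and 90 in the same order. Leaving out single arrays gave 83 to 103 members and kept 70 to 89 of the 90. These ranges include the fits on 2 arrays per genotype, an alternative added after seeing the data. With the replicate number as a block, 35, 33 and 42 members were called in *phyB-77 bri1-5* against *bri1-5*, in *phyB-77 bri1-5* against *phyB-77* and in *phyB-77* against *bri1-5*. The numbers did not pair the samples, with correlations of deviations between same-numbered arrays of -0.195 to 0.076. With 3 arrays per genotype, differences between mutants up to 0.51 on the log2 scale were not called, and single arrays could not be examined as outliers.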
